A study of Mus musculus with 8 samples.

Results

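The core circadian clock genes are Arntl (Bmal1), Clock, Npas2, Per1, Per2, Per3, Cry1, Cry2, Nr1d1 and Nr1d2. Of these 10 genes, 9 had a probe set that carries their symbol alone, and 20 of the 28898 probe sets with a single symbol belonged to them. Nr1d1 had no such probe set and was not analysed here. The members were taken by gene symbol, from a list chosen with earlier results of these data known. For each gene the probe set with the highest mean over all arrays leads, with the others as a check. The 9 measured genes are among 17097 genes tested.

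Messenger RNA was profiled in epidermal basal cells from the back skin of CD1 mice, an outbred strain, with 1 array for each mouse and 300 cells sorted for each array. The groups were EXPD4 (skin expanded by force, day 4, 3 mice), TPA (treated with the phorbol ester 12-O-tetradecanoylphorbol-13-acetate, an activator of protein kinase C, 2 mice) and CTRL (no treatment, 3 mice). All cells were positive for α6 integrin and negative for CD34, which leaves out bulge cells of the hair follicle and keeps infundibulum cells beside interfollicular ones. The time of day at which skin was taken, the dose and duration of TPA and the age of the mice are not given in the sources used here.

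The molecular clock of mammals is a transcriptional feedback loop. BMAL1, the product of Arntl, pairs with CLOCK or its relative NPAS2 and activates the Per, Cry and Nr1d genes through E-boxes. PER and CRY proteins return to the nucleus and repress that pair. The REV-ERB receptors encoded by Nr1d1 and Nr1d2 repress Arntl through an element that the activating ROR receptors also bind, so Arntl and the Nr1d and Per genes usually peak at opposite times of day. In mouse epidermis the clock is known for timing DNA replication and oxidative metabolism of basal stem cells over the day.

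The promoters of the members are shown for the motifs through which the loop is known to act. Sequences are from RefSeq (build GRCm38.p6), in windows of 300 bases around each annotated start, and 9 of the 10 genes had at least 1 window. Both strands were searched for the E-box CACGTG, its variant CACGTT, the D-boxes TTATGTAA and TTACGTAA bound by PAR bZIP factors, the REV-ERB/ROR element spelled TAGGTCA or TGGGTCA, and the cyclic AMP response element TGACGTCA. Among all 32851 windows, 7.15% held CACGTG, 4.68% CACGTT, 0.938% TTATGTAA, 0.119% TTACGTAA, 2.61% TAGGTCA, 3.98% TGGGTCA and 1.79% TGACGTCA. The matches in measured members follow with capitals on the motif, and none overlaps another. A match describes these letters and is no measured site. The Arntl site lies 31 bases after 1 of its annotated starts (chr7:113207529-113207558, plus strand), and the Per1 E-box lies 166 bases before 1 of its annotated starts (chr11:69098771-69098800, plus strand). The Cry1 E-box lies 60 bases before the start (chr10:85185097-85185126, minus strand). Cry2 (chr2:92434086-92434319, minus strand, 234 bases) held CACGTT on the opposite strand, and Per3 (chr4:151044708-151044915, minus strand, 208 bases) held the D-box TTATGTAA at 205 and 158 bases before its start.
Arntl: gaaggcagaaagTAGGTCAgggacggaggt
Per1: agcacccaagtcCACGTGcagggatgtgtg
Cry1: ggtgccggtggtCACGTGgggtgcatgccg
Cry2: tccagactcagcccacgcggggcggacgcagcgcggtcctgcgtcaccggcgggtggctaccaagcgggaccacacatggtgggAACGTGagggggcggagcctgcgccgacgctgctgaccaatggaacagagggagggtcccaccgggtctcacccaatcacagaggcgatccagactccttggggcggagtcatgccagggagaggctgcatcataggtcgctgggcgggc
Per3: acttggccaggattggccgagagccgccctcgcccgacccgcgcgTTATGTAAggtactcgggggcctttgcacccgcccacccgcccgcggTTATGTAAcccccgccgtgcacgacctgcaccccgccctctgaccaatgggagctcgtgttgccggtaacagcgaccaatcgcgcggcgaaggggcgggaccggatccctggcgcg
Cry1 also held CACGTT 79 bases before its start, and Nr1d1 28 bases before its own. The windows of Clock, Npas2 and Nr1d2 held none of these letters, and Per2 had no window.

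Signals are given in log2 units as made by RMA, with means ± SD over 3 EXPD4, 2 TPA or 3 CTRL arrays. Differences are log2 differences ± SE from limma's moderated test over all arrays, with p adjusted by Benjamini-Hochberg over the 17097 genes, and called at 0.05. A background limit was read on each array as the 95th percentile of 79 genes for olfactory, vomeronasal and trace amine receptors, and lay between 6.37 and 6.55. A signal reports RNA summed over the sorted cells, so a change in the number of expressing cells and a change in RNA per cell cannot be told apart. Precision is limited by having 8 arrays.

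Some transcripts known for induction by phorbol ester or wounding ran against the labels, and the groups are therefore named as labelled throughout. Odc1, the rate-limiting enzyme of polyamine synthesis, averaged 9.84 ± 0.14 in EXPD4, 8.99 ± 0.09 in TPA and 11.34 ± 0.02 in CTRL arrays, and Krt16, a wound keratin, averaged 12.90 ± 0.04 in EXPD4, 12.15 ± 0.07 in TPA and 13.04 ± 0.01 in CTRL arrays. The basal keratins Krt5 and Krt14 were above 13.2 on every array and Cd34 was under the limit in each group. The calls of markers that follow stand beside 11.5% of all genes called between EXPD4 and CTRL and 20.8% between TPA and CTRL. Of 6 basal markers, Itga6 and Itgb4 were lower than in CTRL arrays, in EXPD4 (-0.47 and -0.38) and in TPA arrays (-0.69 and -0.32). Of the 8 suprabasal markers, 4 were higher in EXPD4 and in TPA than in CTRL arrays, and the mean log2 signal of the list was 9.81 to 9.90 in EXPD4, 9.79 to 9.98 in TPA and 8.33 to 8.60 in CTRL arrays, with Lor and Flg under the limit on each array. Krt2 had the largest differences of the list (5.72 in EXPD4 and 5.97 in TPA arrays). Ivl had negative differences without a call (-0.33 and -0.48). The mean over 4 endothelial markers was 6.73 to 7.38 in EXPD4 and 6.33 to 6.53 in TPA arrays, and 8.46 in CTRL replicate 1 against 6.52 and 6.63 in the other CTRL arrays. Of 6 macrophage and neutrophil markers, 0 were higher and 2 lower in EXPD4, and 0 higher and 3 lower in TPA, than in CTRL arrays, with list means of 6.54 to 6.64 in EXPD4, 5.96 to 6.22 in TPA and 6.93 to 7.46 in CTRL arrays, and Adgre1 and Cxcr2 under the limit on each array. Cxcr2 was among the lower markers in both comparisons, so its calls rest on signals under the limit. Of 4 Langerhans markers, 2 were lower in EXPD4 and 1 in TPA arrays, with list means of 6.88 to 7.07 in EXPD4, 7.05 to 7.13 in TPA and 7.41 to 8.24 in CTRL arrays. H2-Ab1 was lower in EXPD4 (-1.93) and in TPA arrays, where 0 of 2 arrays lay above the limit, and Cd207 was under the limit on each array. Of 6 bulge markers, Krt15, which basal cells also express, was higher in EXPD4 (1.23) and TPA arrays (2.38), with list means of 6.98 to 7.13 in EXPD4, 7.24 to 7.32 in TPA and 6.79 to 7.01 in CTRL arrays. Sox9 (-0.21 in EXPD4 and 0.22 in TPA arrays) and Tcf7l1 (-0.11 and -0.15) were not called. Lgr5 and Lhx2, like Cd34, lay under the limit on each array. Of 6 fibroblast markers, Dcn alone was called higher in TPA arrays (1.69), with list means of 5.83 to 5.91 in EXPD4, 6.004 to 6.08 in TPA and 5.77 to 5.94 in CTRL arrays. Col1a1 (-0.68) and Col3a1 (-0.10) had negative differences there without a call, and Col3a1 lay above the limit on 1 array of each group. Col1a2, Pdgfra and Lum were under the limit on each array. The part of these markers in the clock results was not tested.

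**Figure D1:**
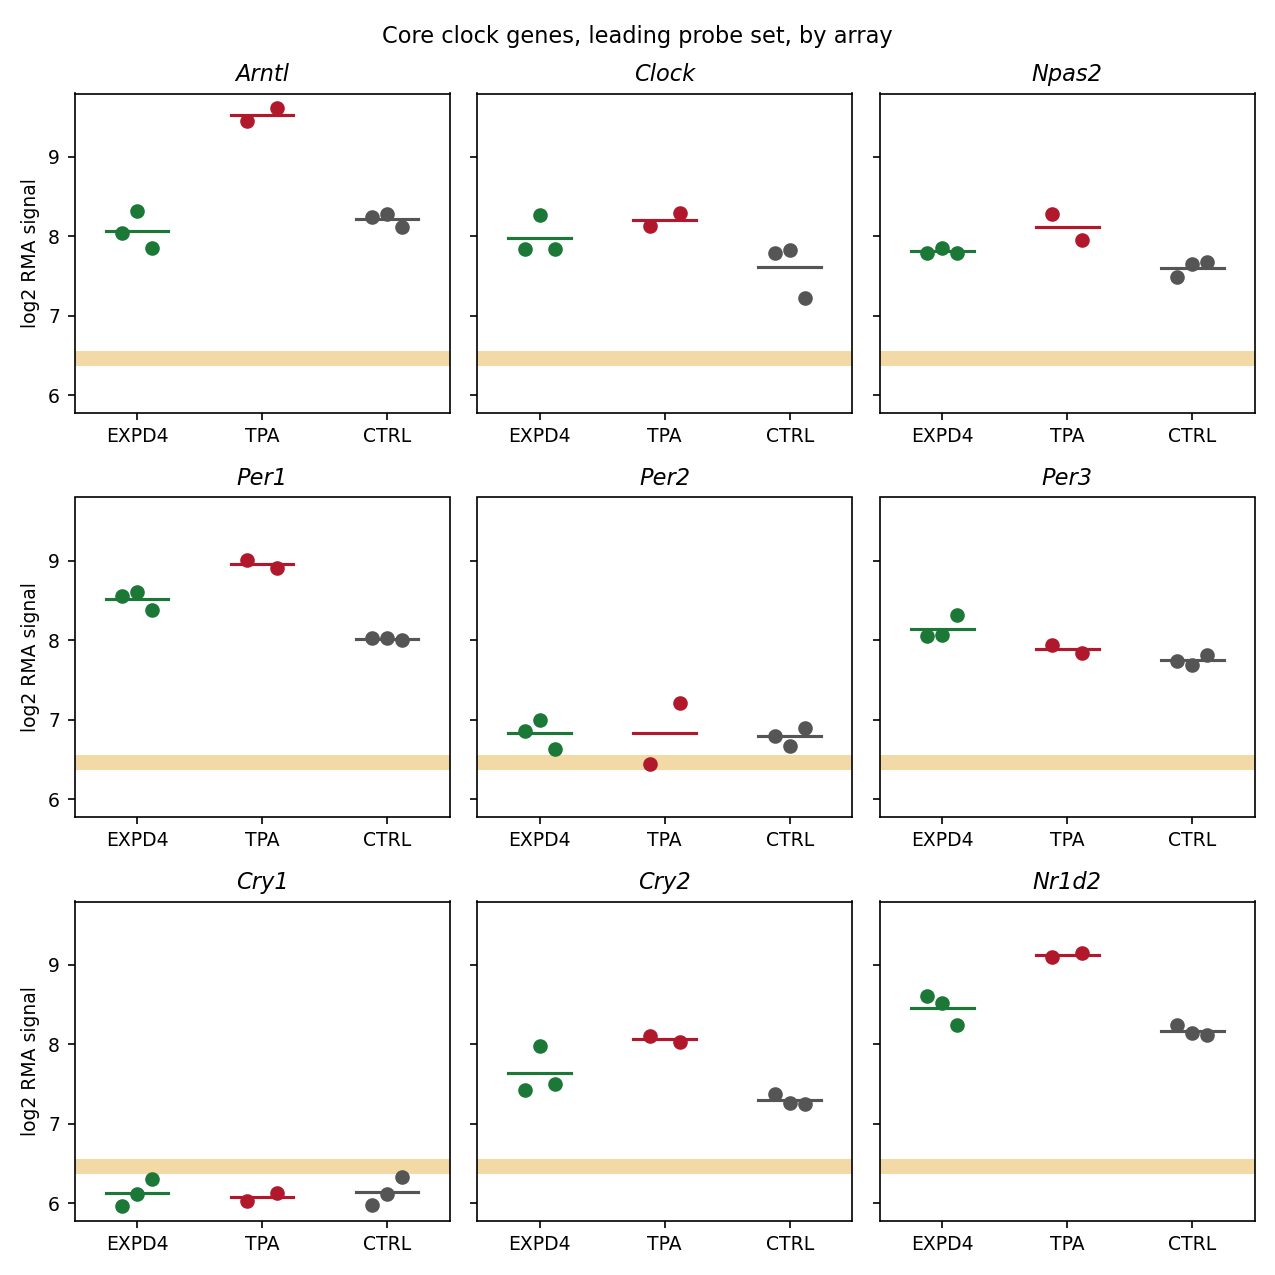
Log2 RMA signal (y axis) of the leading probe set of each measured core clock gene in the EXPD4, TPA and CTRL arrays (x axis), with 1 point per array and a line at the group mean. The shaded band spans the background limits of the arrays (6.37 to 6.55): Cry1 lies under it. Both TPA arrays of Arntl, Per1, Npas2, Cry2 and Nr1d2 lie above all CTRL arrays, as do those of Clock and Per3, which were not called.

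Between TPA and CTRL arrays, 5 of the 9 measured genes were higher and 0 lower: Arntl, Npas2, Per1, Cry2 and Nr1d2. Among all 17097 genes 20.8% were called in this comparison, 10.2% higher and 10.6% lower. At an unadjusted p of 0.05, 6 of the 9 genes were higher and 0 lower, beside 31.7% of all genes in either direction. The median difference of the 9 genes was 0.60, beside -0.03 over all genes. The arrays of the groups did not overlap for 7 of the 9 genes, beside 45.8% of all genes. The activating limb (Arntl, Npas2) and the repressing limb (Per1, Cry2, Nr1d2) both took part in this rise. Without TPA replicate 1 the count was 3, and in that fit the remaining TPA array is assumed to vary like the other groups.

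Arntl, the BMAL1 gene, had the largest difference among the leading probe sets of the members. Its signals were 9.45 and 9.61 in TPA arrays, against 8.24, 8.28 and 8.11 in CTRL arrays. The groups lay more than a log2 unit apart, and the difference was 1.32 ± 0.13 (2.49-fold, adjusted p = 0.000224). The other probe set of Arntl, with a lower signal, was at 7.10 and 7.50 in TPA and at 6.68, 6.92 and 7.03 in CTRL arrays (0.42 ± 0.14, adjusted p = 0.065 in a fit over all probe sets). It did not pass the test, though its groups did not overlap either. With the mean of both probe sets Arntl was called, with a difference of 0.87.

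Npas2, the relative of Clock that can replace it as partner of BMAL1, was at 8.28 and 7.95 in TPA arrays, against 7.49, 7.66 and 7.67 in CTRL arrays. The difference was 0.51 ± 0.11 (adjusted p = 0.0112). TPA replicate 1 was the higher of the pair, and without it the difference was 0.34 and was not called (adjusted p = 0.075). The other probe set of Npas2 separated the groups further, with 7.74 and 7.89 in TPA arrays and 5.44, 5.61 and 5.82 in CTRL arrays. Its CTRL signals lay under the background limit, so the rise was at least 2.47-fold (adjusted p = 7.19e-05). With the mean of both probe sets the difference of Npas2 was 1.35, a size that includes those CTRL signals under the limit.

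Clock, the usual partner of BMAL1, did not pass the test with its leading probe set. It was at 8.13 and 8.29 in TPA and at 7.78, 7.82 and 7.22 in CTRL arrays (0.60 ± 0.20, adjusted p = 0.0665), where CTRL replicate 3 was the lowest. Its 4 probe sets disagreed. One of the others was higher in TPA arrays (0.50 ± 0.12, adjusted p = 0.0185), and another was lower (-0.33 ± 0.09, adjusted p = 0.0352). The direction for Clock is therefore not settled by these arrays.

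Among the repressors, Per1 and Cry2 were higher in TPA arrays. Per1, whose transcript is also an immediate early response to serum in cultured fibroblasts, was at 9.01 and 8.91 in TPA arrays, against 8.03, 8.03 and 8.005 in CTRL arrays. The difference was 0.94 ± 0.09 (1.92-fold, adjusted p = 0.000141). Cry2, a cryptochrome that blocks CLOCK and BMAL1, was at 8.10 and 8.02 in TPA arrays, against 7.38, 7.26 and 7.24 in CTRL arrays. Its difference was 0.77 ± 0.15 (1.70-fold, adjusted p = 0.00806), and it was not called without TPA replicate 1 (0.73, adjusted p = 0.0503).

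Nr1d2, which encodes REV-ERB beta, was at 9.10 and 9.15 in TPA arrays, against 8.25, 8.14 and 8.11 in CTRL arrays. The groups were well separated, with a difference of 0.96 ± 0.11 (1.94-fold, adjusted p = 0.000492). Its other probe set was at 7.58 and 7.45 in TPA arrays and at 5.88, 6.19 and 5.95 in CTRL arrays, all CTRL arrays under the limit, so that the rise was at least 2.01-fold (adjusted p = 9.03e-05). Arntl and Nr1d2, target and repressor in the loop, were thus both higher in the same TPA arrays.

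The other period and cryptochrome genes did not pass between TPA and CTRL arrays. Per3 was at 7.94 and 7.84 in TPA and at 7.74, 7.68 and 7.82 in CTRL arrays, with a difference of 0.14 (95% interval -0.09 to 0.37). Per2 was split between the TPA arrays, at 6.45 and 7.21, around CTRL arrays at 6.80, 6.67 and 6.90, and its interval ran from -0.43 to 0.51. The lower of these TPA signals lay under the background limit of its array (6.47). Cry1 was at 6.02 and 6.13 in TPA and at 5.98, 6.12 and 6.33 in CTRL arrays. It lay under the background limit on each array of the series, so its signals cannot show a change in its RNA.

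**Figure D2:**
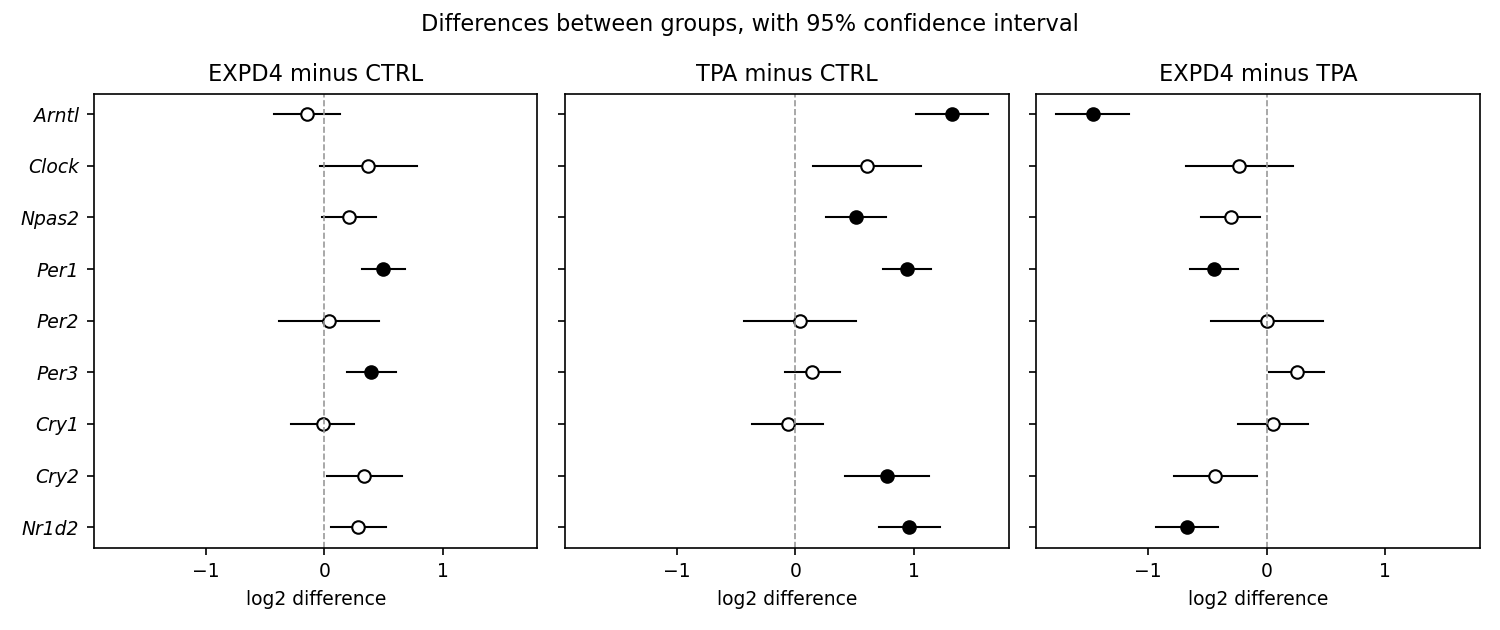
Log2 difference (x axis) of each measured core clock gene (y axis) for EXPD4 minus CTRL, TPA minus CTRL and EXPD4 minus TPA, with 95% confidence intervals; filled points passed an adjusted p of 0.05. In TPA minus CTRL the filled points are Arntl, Npas2, Per1, Cry2 and Nr1d2, in EXPD4 minus CTRL they are Per1 and Per3, and in EXPD4 minus TPA they are Arntl, Per1 and Nr1d2.

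Between EXPD4 and CTRL arrays, 2 of the 9 genes were higher, Per1 and Per3, and 0 were lower. Of all genes 11.5% were called here, 5.69% higher and 5.78% lower. At an unadjusted p of 0.05, 4 of the 9 genes were higher and 0 lower, beside 23.7% of all genes in either direction. The median difference was 0.29, beside 0.01 over all genes, and the groups did not overlap for 5 of the 9 genes, beside 30% of all genes. Per1 was at 8.56, 8.61 and 8.38 in EXPD4 arrays, against 8.03, 8.03 and 8.005 in CTRL arrays. Each EXPD4 array lay above each CTRL array, and the difference was 0.50 ± 0.08 (1.41-fold, adjusted p = 0.00451).

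Per3, a period gene that is less needed for rhythm in mice than Per1 and Per2, was at 8.05, 8.06 and 8.32 in EXPD4 arrays, against 7.74, 7.68 and 7.82 in CTRL arrays. The difference was 0.40 ± 0.09 (1.32-fold, adjusted p = 0.0239). The call was lost without CTRL replicate 1 (0.39, adjusted p = 0.0643), CTRL replicate 2 (0.37, adjusted p = 0.0886) or EXPD4 replicate 3 (0.31, adjusted p = 0.063). The 4 other probe sets of Per3 differed by 0.09 to 0.13 and did not pass, and with the mean of its probe sets Per3 was at 0.17 (adjusted p = 0.265).

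The activators showed no call between EXPD4 and CTRL arrays. Arntl was at 8.04, 8.32 and 7.85 in EXPD4 arrays, on both sides of the CTRL arrays at 8.24, 8.28 and 8.11. Its difference was -0.15 (95% interval -0.42 to 0.13), and its other probe set was at 0.22 (adjusted p = 0.361). Clock was at 7.84, 8.26 and 7.83 in EXPD4 arrays, above the CTRL arrays at 7.78, 7.82 and 7.22 (0.37 ± 0.18, adjusted p = 0.257), and without CTRL replicate 3 the difference was 0.18. Npas2 was at 7.79, 7.86 and 7.79 in EXPD4 arrays, also above its CTRL arrays at 7.49, 7.66 and 7.67 (0.21 ± 0.10, adjusted p = 0.253). The second probe set of Npas2 was called in this comparison (adjusted p = 0.00718), with 1 of 3 EXPD4 arrays and 0 of 3 CTRL arrays above the limit. Counted from the limit, the rise of this second probe set was at least 1.02-fold. With the mean of both probe sets Npas2 was called, at 0.56 (adjusted p = 0.00819), a size that includes signals under the limit.

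Cry2 and Nr1d2 had positive differences without a call. Cry2 was at 7.42, 7.98 and 7.50 in EXPD4 arrays, against 7.38, 7.26 and 7.24 in CTRL arrays (0.34 ± 0.14, adjusted p = 0.176), with EXPD4 replicate 2 the highest, and without that array the difference was 0.16. Nr1d2 was at 8.61, 8.52 and 8.24 in EXPD4 arrays, against 8.25, 8.14 and 8.11 in CTRL arrays (0.29 ± 0.10, adjusted p = 0.116). EXPD4 replicate 3 of Nr1d2 lay within the CTRL range, and without that array the difference was 0.40 and was called (adjusted p = 0.0276). The other probe set of Nr1d2 was called (0.51 ± 0.11, adjusted p = 0.022), with 1 of 3 EXPD4 and 0 of 3 CTRL arrays above the limit. Counted from the limit, its rise was at least 1.005-fold. With the mean of both probe sets Nr1d2 was called, at 0.40 (adjusted p = 0.0118), a size that includes signals under the limit. Per2 was at 6.86, 7.002 and 6.63 and Cry1 at 5.96, 6.12 and 6.31 in EXPD4 arrays, each across its CTRL range.

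**Figure D3:**
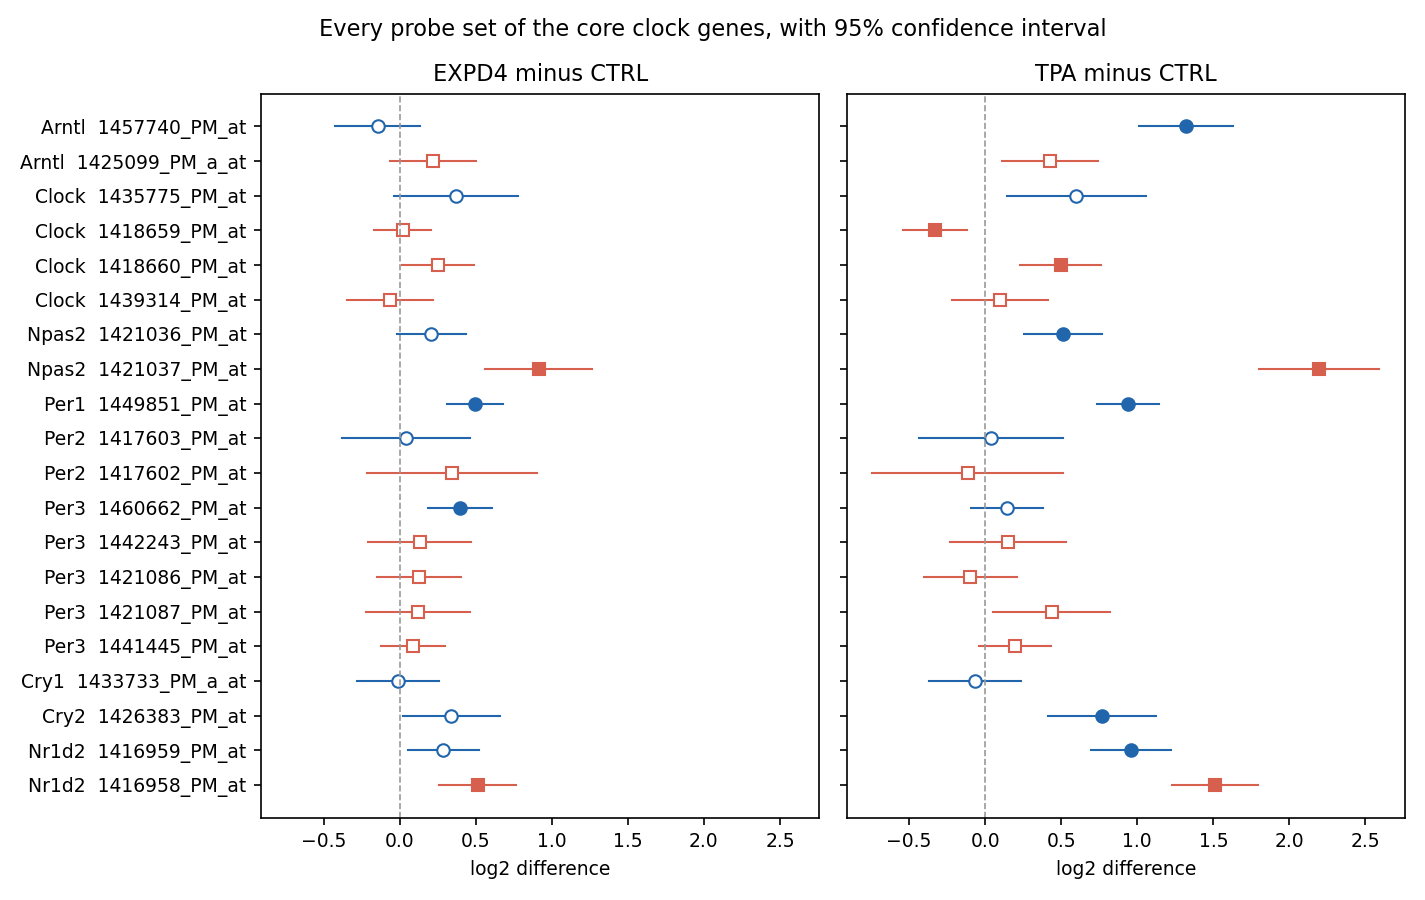
Log2 difference (x axis) of all 20 probe sets of the core clock genes (y axis) for EXPD4 minus CTRL and TPA minus CTRL, from a fit over all 28898 single-symbol probe sets, with 95% confidence intervals. Blue circles are leading probe sets, red squares the others, and filled symbols passed an adjusted p of 0.05; for TPA minus CTRL both Npas2 and both Nr1d2 probe sets are filled on the positive side, and Clock has a filled symbol on each side of 0.

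The direct comparison of EXPD4 with TPA arrays tests whether the treatments differ. Of the 9 genes, 0 were higher and 3 lower in EXPD4 arrays, Arntl, Nr1d2 and Per1, where 5.98% of all genes were called, 3.16% higher and 2.81% lower. At an unadjusted p of 0.05, 1 was higher and 5 were lower, beside 19.3% of all genes in either direction. Groups did not overlap for 6 of the 9 genes, beside 35.7% of all genes. Arntl was at 8.04, 8.32 and 7.85 in EXPD4 arrays, against 9.45 and 9.61 in TPA arrays, a difference of -1.46 ± 0.13 (adjusted p = 0.000929). With this leading probe set Arntl stood apart in TPA arrays alone: EXPD4 and CTRL were neighbours in its order of levels and did not differ beyond their spread. The other probe set of Arntl did not show this. It was at 7.06, 7.13 and 7.10 in EXPD4 arrays, above its CTRL arrays and overlapping its TPA arrays. Its EXPD4 minus TPA difference was -0.21 (adjusted p = 0.504 in the fit over all probe sets).

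For the leading probe sets of Nr1d2 and Per1 the mean of EXPD4 arrays lay between the others. Per1 was called in each comparison, and Nr1d2 was not called between EXPD4 and CTRL (adjusted p = 0.116). Nr1d2 averaged 8.46 ± 0.19 in EXPD4, 9.13 ± 0.03 in TPA and 8.17 ± 0.07 in CTRL arrays, and EXPD4 minus TPA was -0.67 ± 0.11 (adjusted p = 0.0121). Per1 averaged 8.52 ± 0.12 in EXPD4, 8.96 ± 0.07 in TPA and 8.02 ± 0.01 in CTRL arrays, and EXPD4 minus TPA was -0.44 ± 0.09 (adjusted p = 0.0228). Without TPA replicate 1 or 2 both calls were lost (adjusted p up to 0.121 for Per1 and 0.0524 for Nr1d2), that of Per1 also without EXPD4 replicate 3 (adjusted p = 0.0608). The count was then 1 without either TPA array, and Arntl was the gene that stayed called. With only the EXPD4 and TPA arrays in the fit the count was also 1. Npas2 did not pass with its leading probe set (-0.30, adjusted p = 0.167) and did with the mean of both (-0.79, adjusted p = 0.00569). In its second probe set 1 of 3 EXPD4 arrays lay above the limit. Cry2 did not pass (-0.43, adjusted p = 0.162), and was called without EXPD4 replicate 2 (-0.61, adjusted p = 0.0149). Per3 (0.25, adjusted p = 0.208) and Clock (-0.23, adjusted p = 0.629) did not pass.

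The genes nearest in pattern were found by the root mean square distance between log2 signals over the 8 arrays, each gene centred on its own mean, for the 5 members called between TPA and CTRL. For Arntl they were Otud1, a deubiquitinase (distance 0.158), Tob1, an antiproliferative protein (0.167), and Rel, an NF-kB subunit (0.177). Otud1 averaged 8.49 ± 0.02 in EXPD4, 9.84 ± 0.07 in TPA and 8.43 ± 0.07 in CTRL arrays. For Per1 they were Fgfr2, a fibroblast growth factor receptor (0.0549), Ccni, cyclin I (0.0572), and Ddb2, a DNA damage sensor (0.0705). For Nr1d2 they were Abcc5, Anp32a and Pfkfb2 (0.0802 to 0.102). For Cry2 they were Ech1, Zfp202 and Lrrc61 (0.0876 to 0.105), and for Npas2 they were Heph, Nipbl and Zkscan17 (0.0408 to 0.06). The group means of Heph (5.89 to 6.35) and Zfp202 (5.65 to 6.32) lay under the lowest background limit of 6.37, so their patterns rest on signals near background. Between members, Per1 and Nr1d2 were the closest pair, at 0.13, and Arntl lay 0.33 from Nr1d2, its nearest member. The distances are a description over the same 8 arrays.

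Receptors that meet REV-ERB at the Arntl element were read next. Rora, which encodes the activator ROR alpha, was at 11.11, 11.12 and 11.21 in EXPD4 and at 11.76 and 11.76 in TPA arrays, against 10.27, 10.14 and 10.18 in CTRL arrays. The groups did not overlap, and Rora was higher in EXPD4 (0.95 ± 0.07, adjusted p = 0.000102) and in TPA arrays (1.57 ± 0.08, adjusted p = 4.78e-06) than in CTRL arrays. It was lower in EXPD4 than in TPA arrays (-0.62 ± 0.08, adjusted p = 0.0031). Rorb lay under the limit on each array. Rora and Nr1d2, an activator and a repressor known to act on Arntl, were thus both highest in TPA arrays.

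Among 7 output factors of the clock, 3 were higher and 0 lower in TPA arrays, and 2 were higher and 0 lower in EXPD4 arrays, than in CTRL arrays, where 20.8% and 11.5% of all genes were called. Leaving out 1 array at a time gave 2 to 3 and 1 to 3 genes. Hlf, a PAR bZIP activator at D-boxes, was at 8.76, 8.496 and 8.54 in EXPD4 and at 8.54 and 8.99 in TPA arrays, against 7.57, 7.69 and 7.85 in CTRL arrays. Its differences were 0.89 ± 0.13 (adjusted p = 0.00333) and 1.06 ± 0.15 (adjusted p = 0.00124) from CTRL. Its relative Tef was higher as well (0.34 ± 0.07 in EXPD4 and 0.42 ± 0.08 in TPA arrays), and lost its EXPD4 call without CTRL replicate 1 or 2 or EXPD4 replicate 1 or 3 (adjusted p up to 0.084) and its TPA call without TPA replicate 2 (adjusted p = 0.0512). With the mean of its probe sets Tef was called in neither (0.21, adjusted p = 0.0911, and 0.19, adjusted p = 0.125). Bhlhe40 (DEC1), a repressor at E-boxes, was higher in TPA than in CTRL arrays (0.62 ± 0.11, adjusted p = 0.00393) and lower in EXPD4 than in TPA arrays (-0.90 ± 0.11, adjusted p = 0.00272). Dbp, Nfil3, Bhlhe41 and Ciart did not pass in any comparison, and the median of the 7 genes was 0.17 between TPA and CTRL and -0.01 between EXPD4 and CTRL. Dbp lay above the background limit on 0 EXPD4, 1 TPA and 0 CTRL arrays, so its signals can hardly show a change in its RNA.

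Of 15 modifiers of clock proteins 12 were measured. Between TPA and CTRL arrays 2 were higher and 1 lower, and between EXPD4 and CTRL arrays 2 were higher and 1 lower, where 20.8% and 11.5% of all genes were called. The number called was 1 to 3 for TPA and 0 to 3 for EXPD4 with 1 array left out, and 6 for EXPD4 with a robust trended variance prior. It was 0 for EXPD4 without CTRL replicate 2 or 3 or EXPD4 replicate 1 or 3, and 1 without EXPD4 replicate 2. For TPA it was 1 without CTRL replicate 2 or 3 or TPA replicate 1. Usp2, a deubiquitinase that acts on clock proteins, was at 8.20 and 7.80 in TPA arrays, against 6.47, 6.41 and 6.36 in CTRL arrays under the limit, a rise of at least 2.81-fold (adjusted p = 0.000188). In EXPD4 arrays it was at 6.91, 6.44 and 6.82, without a call against CTRL (adjusted p = 0.223). Cipc, a repressor that binds CLOCK, was higher in EXPD4 (1.07 ± 0.25) and TPA arrays (1.06 ± 0.28). Those calls were lost without CTRL replicate 2 or 3 or any EXPD4 array (EXPD4, adjusted p up to 0.0852), and without CTRL replicate 2 or 3 or TPA replicate 1 (TPA, adjusted p up to 0.194). The remaining calls against CTRL, of Csnk2a1 and Sirt1 in EXPD4 and Fbxw11 in TPA arrays, had adjusted p of 0.0359, 0.0339 and 0.0465. Csnk2a1 was called in 3 and Sirt1 in 4 of the 8 fits without 1 array. Cipc was called at 0.68 in EXPD4 and 0.53 in TPA arrays with the mean of its probe sets. Csnk1d and Csnk1e, the kinases that phosphorylate PER proteins, did not pass in any comparison.

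Of 5 genes with a rhythm in several tissues, 3 were measured, and 2 were higher and 1 lower in TPA than in CTRL arrays (20.8% of all genes called). Wee1, a kinase that holds cells before mitosis and a known target of CLOCK and BMAL1, was at 9.25 and 9.16 in TPA arrays, against 8.47, 8.36 and 8.45 in CTRL arrays. The arrays did not overlap, and the difference was 0.78 ± 0.11 (adjusted p = 0.00114). In EXPD4 arrays it was at 8.75, 8.54 and 8.41, and the call was absent (adjusted p = 0.463). Dnajb1, a heat shock cochaperone, was higher in TPA arrays (0.41 ± 0.07, adjusted p = 0.00405). Tspo was lower (-0.36 ± 0.10, adjusted p = 0.0334), and lost the call without CTRL replicate 1 or 2, EXPD4 replicate 1 or TPA replicate 1 (adjusted p up to 0.198).

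**Figure D4:**
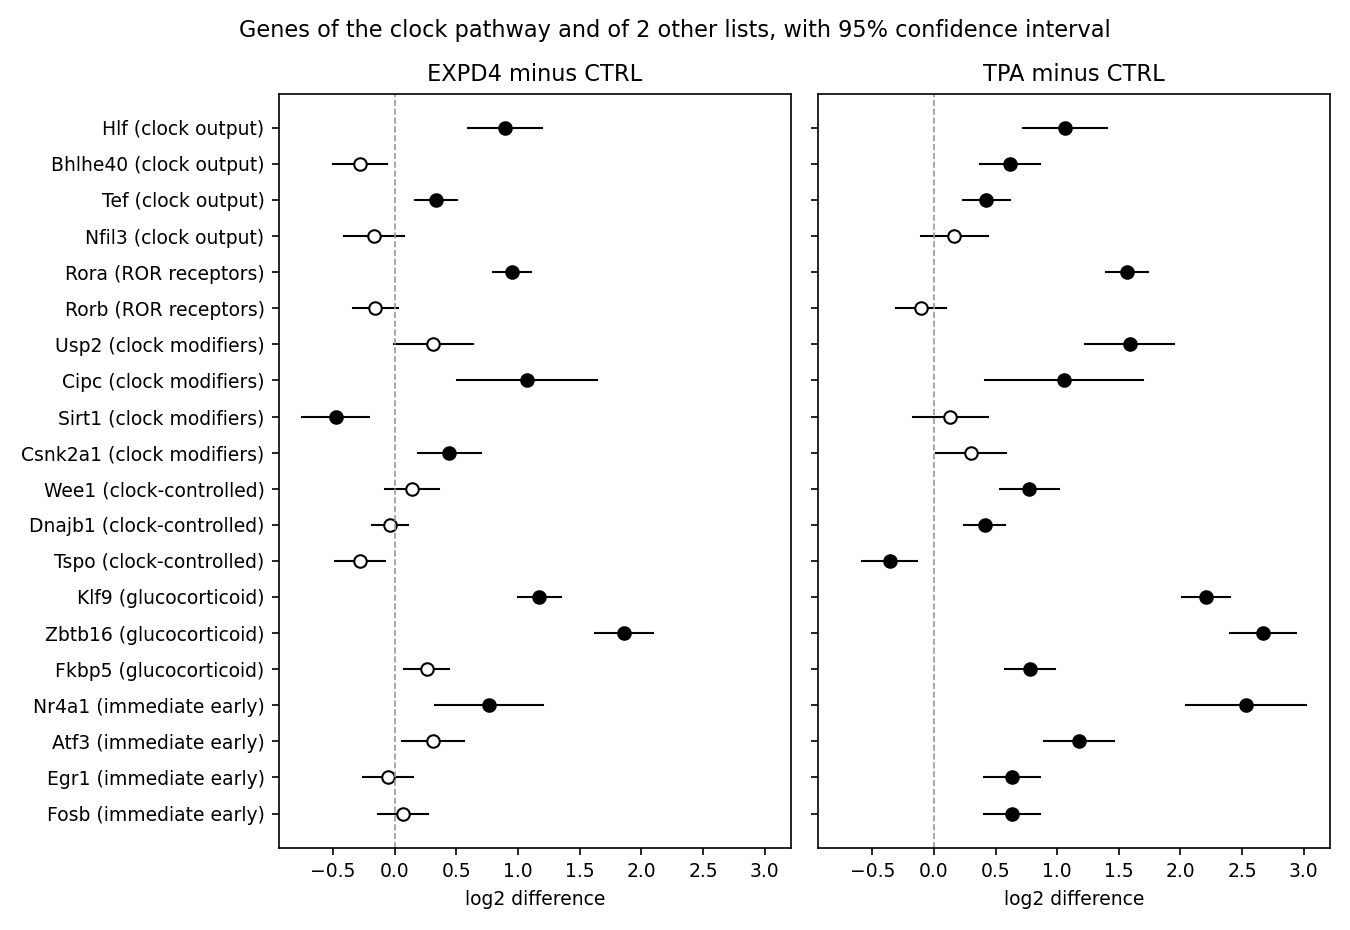
Log2 difference (x axis) for EXPD4 minus CTRL and TPA minus CTRL of up to 4 genes with the smallest p from each of 6 lists (y axis, list in brackets), with 95% confidence intervals; filled points passed an adjusted p of 0.05. Zbtb16, Nr4a1 and Klf9 lie farthest to the right in TPA minus CTRL, at 2.67, 2.53 and 2.21.

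Per1 is also known to respond to glucocorticoids and to growth stimuli, so genes of both responses were set beside it. Of 8 glucocorticoid receptor targets, Per1 included, 5 were higher and 1 lower in TPA arrays, and 3 higher and 1 lower in EXPD4 arrays, than in CTRL arrays, where 20.8% and 11.5% of all genes were called. Klf9, a Krüppel-like factor, was at 9.39, 9.41 and 9.57 in EXPD4 and at 10.53 and 10.46 in TPA arrays, against 8.35, 8.29 and 8.22 in CTRL arrays. Zbtb16 (PLZF) was at 8.70, 8.77 and 8.91 in EXPD4 and at 9.51 and 9.71 in TPA arrays, against 6.76, 6.99 and 7.06 in CTRL arrays. Both had the same order of groups as Per1, without overlap, and adjusted p of 6.31e-05 and 4.41e-05 for EXPD4 and 2e-06 and 3.06e-06 for TPA against CTRL. Fkbp5, a cochaperone of the receptor, was higher in TPA arrays (0.78 ± 0.09, adjusted p = 0.000438). Averaged over all probe sets of a gene the calls held at smaller sizes, at 0.32 for Fkbp5 in TPA, 0.50 for Klf9 in EXPD4, and 0.99 in EXPD4 and 1.70 in TPA arrays for Zbtb16. Ddit4 was lower in EXPD4 (-0.70 ± 0.10, adjusted p = 0.00265) and TPA arrays (-0.86 ± 0.11, adjusted p = 0.000867), and Tsc22d3 (GILZ) and Sgk1 did not pass.

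Of 8 immediate early genes, 7 were higher and 0 lower in TPA arrays, and 1 was higher and 0 lower in EXPD4 arrays, than in CTRL arrays, where 20.8% and 11.5% of all genes were called. The 1 of 8 in EXPD4 arrays is near that share. Nr4a1, a nuclear receptor, was at 10.04, 10.01 and 9.32 in EXPD4 and at 11.58 and 11.54 in TPA arrays, against 9.13, 8.79 and 9.17 in CTRL arrays. It differed from CTRL by 0.76 ± 0.19 in EXPD4 (adjusted p = 0.0359) and by 2.53 ± 0.21 in TPA arrays (adjusted p = 8.33e-05). The EXPD4 call was lost without any 1 CTRL array or EXPD4 replicate 1 or 2 (adjusted p up to 0.123). Atf3 (1.17 ± 0.12), Egr1 (0.63 ± 0.10) and Fosb (0.63 ± 0.10) were higher in TPA arrays, and Fos was at 0.19 without a call (adjusted p = 0.118). These genes were bright in CTRL arrays, with means of 11.53, 12.21, 12.37 and 12.69 in that order. The highest signal of any probe set on a CTRL array was 13.69 to 13.70. The part of either response in the level of Per1 was not tested.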

How the data were processed

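The deposited log2 signals come from RMA, per the submitters' processing notes (version not given in the sources used here). They cover 45141 probe sets on 8 arrays, of which 104 are array controls. Per the labels' protocols, cDNA was amplified from 300 sorted cells. The table held 0 columns of other samples, and 0 pairs of arrays were identical. The platform annotation gave 28898 probe sets 1 symbol and 551 several. Each gene was read by its probe set with the highest mean, 17097 genes in all. As a check of row names, 40 genes with several probe sets had a median r of 0.98 between them, and -0.03 against a partner 1 row off.

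Group means were fitted in limma 3.58.1 (R 4.3.3), with 5 residual and 3.54 prior degrees of freedom. On simulated data it recovered 60%, 50% and 52% of 50 genes changed by a fold of 1.5 between EXPD4 and CTRL, TPA and CTRL, and EXPD4 and TPA. At a fold of 2 it recovered 90%, 90% and 86%. False calls numbered 12, 7 and 3 among the unchanged genes of the 17097. Fewer genes were changed there than were called in the data, so recovery in the data can differ. The core genes and gene lists were chosen with earlier results of these data known. The named genes are the 10 members, up to 4 genes of each of 6 clock and response lists by smallest p against CTRL, and the 3 nearest genes in pattern for each member called between TPA and CTRL. Named outside that rule, after their values were seen, are Odc1, Krt16, Fbxw11, Csnk1d, Csnk1e, Ddit4, Tsc22d3, Sgk1, Fos, Dbp, Bhlhe41 and Ciart, and the cell type markers Krt5, Krt14, Itga6, Itgb4, Cd34, Krt2, Ivl, Lor, Flg, Adgre1, Cxcr2, H2-Ab1, Cd207, Krt15, Sox9, Tcf7l1, Lgr5, Lhx2, Dcn, Col1a1, Col3a1, Col1a2, Pdgfra and Lum. Where all arrays of a group lay under the background limit, the fold is a bound counted from that limit ("at least"). The mean of the brighter group was set against the dimmer group with its signals raised to the limit.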

Additional observations from a re-analysis of the deposited data

How the results depend on the processing

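Results were recomputed with quantile normalization, centring, a signal filter, the mean of probe sets, array weights, a robust trended variance prior, a fit of only the groups compared, the replicate block, each array left out and each other probe set. Per1 was called against CTRL in 16 of 16 settings of the fit in EXPD4 and in TPA arrays, as were Arntl and Nr1d2 in TPA arrays, and Npas2 and Cry2 in 15 of 16. The signal filter left 7 members, without Per2 and Cry1.

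With each array left out in turn, the genes called numbered 1261 to 2076 between EXPD4 and CTRL (1960 with all arrays), 2613 to 3344 between TPA and CTRL (3559), and 560 to 922 between EXPD4 and TPA (1022). The core clock genes called numbered 1 to 2, 3 to 5 and 1 to 4. With only the groups compared, EXPD4 and TPA gave 511 genes and 1 core clock gene. For arrays sharing a replicate number, deviations from the group means had r of -0.18 to 0.03. Deviations within so small a group must cancel out, so these r cannot settle whether the numbers pair the arrays. A lone TPA array is assumed to vary like the other groups. The replicate block gave 541 genes between EXPD4 and TPA, and Per1 lost its call there (-0.40, adjusted p = 0.0846). The block changed no other call of a core clock gene. Of the named genes, the replicate block ended the calls of Tef, Csnk2a1, Nr4a1 and Ech1 between EXPD4 and CTRL, of Tspo and Heph between TPA and CTRL, and of Fgfr2, Ddb2, Anp32a and Pfkfb2 between EXPD4 and TPA.

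Sign changes were seen in values without a call, apart from a Clock probe set (-0.33, adjusted p = 0.0352). With the mean of probe sets Arntl was at 0.0363 between EXPD4 and CTRL, and Per2 at -0.0378 between TPA and CTRL. With array weights Per2 was at -0.00689 between EXPD4 and TPA. With the replicate block Cry1 was at 0.0256 between TPA and CTRL and at -0.0389 between EXPD4 and TPA. Other probe sets turned Arntl (0.22) and Clock (-0.0615) between EXPD4 and CTRL, Per2 (-0.12), Clock (-0.33) and Per3 (-0.10) between TPA and CTRL, and Clock (0.35) and Per3 (-0.32, -0.11 and -0.018) between EXPD4 and TPA. With 1 array left out, Per2 ranged from -0.0443 to 0.14, -0.34 to 0.42 and -0.38 to 0.38 in the 3 comparisons, and Cry1 from -0.10 to 0.0809, -0.15 to 0.0277 and -0.0368 to 0.14. The cause was not tested.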
